A study of Homo sapiens with 12 samples.

Results

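The codons of GFP that follow a recoded firefly luciferase in a reporter reading frame were examined. They are the whole codons, 723 nt in all, of the GFP entry in the deposited region list, matched by codon number between the reporters. GFP lies at positions 6051 to 6773 of the nonoptimal plasmid map and at positions 5285 to 6008 of the optimal map. The optimal entry is 1 nt longer, so its last nucleotide was left out. Each frame of 1127 codons reads SM (337 codons, named so in the region list), then FLuc, the firefly luciferase (549 codons), then GFP, which makes up the rest. All positions are on these plasmid maps, to which no genome build applies.

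The cells were HEK293T, an established human embryonic kidney line, labelled wild type. All 4 groups received a firefly reporter together with a Renilla luciferase reporter by lipofection and were harvested 24 hours later after a brief treatment with cycloheximide, which holds ribosomes on mRNA. In the nonoptimal group the reporter was SM-nonopt FLuc-GFP, and in the optimal group it was SM-opt FLuc-GFP. Ribo-seq, in which pieces of mRNA covered by a ribosome are recovered after nuclease digestion and sequenced, and RNA-seq each had 3 replicates of both groups, 12 libraries in all. The reporters were carried on transfected plasmids, so their levels reflect transient expression and not an integrated gene. Nothing in the labels says whether replicates were separate cultures, so the p-values measure only the spread between these libraries.

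A ribosome moves along an mRNA codon by codon, and the fragment it protects ends a fixed distance before the codon being read. The 5′ ends of footprints therefore recur on the same position of each codon, and many footprints on 1 codon mark a place where ribosomes were often caught. Synonymous codons encode the same amino acid but are read by tRNAs of different abundance, and codons called optimal are those associated with efficient translation and stable mRNA. GFP, a fluorescent protein first taken from a jellyfish, is a common readout at the end of a reporter frame. Since GFP is read after FLuc, a ribosome that began at the start of the frame reaches GFP only after the recoded stretch. Starts inside the frame were not examined. The GFP entry has the same name in both maps. That GFP and SM are the same in both reporters rests on their names and lengths, since sequences of the plasmids were not analysed here.

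Ribo-seq libraries held 1975 to 11028 alignments to the plasmids, of which 45 to 255 overlapped GFP. RNA-seq libraries held 26422 to 90999 alignments, of which 1289 to 10076 overlapped GFP. None of the alignments on GFP came from a read that also aligned to the Renilla plasmid. A footprint below means a sense Ribo-seq alignment of 27 to 30 nt, counted at the codon that holds its 5′ end. GFP received 134, 229 and 44 footprints in nonoptimal replicates 1 to 3, and 110, 115 and 95 in optimal replicates 1 to 3. Nonoptimal replicate 3 thus rests on the fewest footprints.

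GFP footprints kept the reading frame in both reporters. The main codon position, taken from Renilla in the same library, was the second in every library. Over GFP it held 102 of 134, 181 of 229 and 29 of 44 footprints in the nonoptimal libraries and 87 of 110, 98 of 115 and 74 of 95 in the optimal libraries. The share was 73.7% ± 6.89 (SD, n = 3) and 80.7% ± 3.93 (SD, n = 3), a difference of 7.05 percentage points (SE 4.58). The ranges overlapped (two-sided exact permutation p = 0.2, Benjamini-Hochberg adjusted p = 0.311). Without nonoptimal replicate 3 the difference was 3.15 points, and the ranges did not overlap without nonoptimal replicate 2 (9.72 points) or optimal replicate 3 (8.46 points). Here and below, leaving out a library can end an overlap but cannot create one. Such a separation is therefore no added support for a difference. The lowest library, nonoptimal replicate 3, had 65.9% in frame, with a 95% Wilson interval of 51.1% to 78.1% that covers counting error only. Over SM the same position held 74.8% ± 5.27 (SD, n = 3) and 76.7% ± 1.01 (SD, n = 3), and over Renilla 81.4% ± 0.205 (SD, n = 3) and 78.4% ± 2.50 (SD, n = 3). Over FLuc it held 67.3% ± 5.27 (SD, n = 3) and 77.4% ± 5.02 (SD, n = 3). These FLuc ranges, 61.5% to 71.7% and 71.9% to 81.9%, did not overlap and were not tested.

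The first comparison asked how much GFP RNA and how many GFP footprints each reporter gave. Levels are relative to Renilla in the same library: mean depth per nucleotide for RNA, and footprints per codon for Ribo-seq. GFP RNA was 0.288, 0.291 and 0.335 of Renilla in nonoptimal replicates 1, 2 and 3, and 1.23, 1.07 and 1.12 in optimal ones. Every optimal library lay above every nonoptimal one. The means were 0.305 ± 0.0264 (SD, n = 3) and 1.14 ± 0.0771 (SD, n = 3), so the optimal reporter was 3.75-fold higher (log2 difference 1.91, SE 0.090). By an exact permutation test, p was 0.1, which is the lowest value reachable with 3 libraries on each side, and the adjusted p over the 14 single-value comparisons was 0.28. No comparison below can therefore reach 0.05.

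GFP footprints showed the same order. The footprint level was 0.0578, 0.0769 and 0.0823 with the nonoptimal reporter and 0.364, 0.259 and 0.295 with the optimal one, without overlap. The means were 0.0723 ± 0.0129 (SD, n = 3) and 0.306 ± 0.0535 (SD, n = 3). The optimal level was 4.24-fold higher (log2 difference 2.08, SE 0.21, exact permutation p = 0.1, adjusted p = 0.28). Both differences depend on Renilla as the scale, and Renilla footprints themselves differed between the groups. Renilla held 9.62, 12.4 and 2.22 footprints per codon in the nonoptimal libraries and 1.253, 1.84 and 1.34 in the optimal ones. Before scaling, GFP held 0.556, 0.950 and 0.183 footprints per codon with the nonoptimal and 0.456, 0.477 and 0.394 with the optimal reporter, so the optimal libraries were not higher in unscaled counts. The 4.24-fold value thus rests on the Renilla counts, and a change in GFP cannot be told apart here from a change in Renilla. In RNA-seq the Renilla depth overlapped, at 1803, 1293 and 696 per nucleotide in the nonoptimal and 1455, 1674 and 985 in the optimal libraries, while GFP depth was 519, 376 and 233 against 1784, 1799 and 1106. With all plasmid alignments of a library as the scale, which include those on Renilla, the log2 differences were 1.03 for RNA and 1.35 for footprints, still without overlap.

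Relative to Renilla, footprints per unit of GFP RNA did not separate the reporters. The quotient of footprint and RNA levels, taken between libraries of the same number, was 0.201, 0.265 and 0.246 in the nonoptimal and 0.297, 0.241 and 0.263 in the optimal libraries. Only optimal replicate 1 exceeded all nonoptimal values. The means of 0.237 ± 0.0329 (SD, n = 3) and 0.267 ± 0.0284 (SD, n = 3) differed by 0.18 on the log2 scale (SE 0.15; exact permutation p = 0.5, adjusted p = 0.636). It was 0.060 without nonoptimal replicate 1 and 0.096 without optimal replicate 1. This difference was within the spread between replicates, which does not show that the values are equal. The quotient rests on Renilla in both assays. Before scaling, GFP RNA depth was 233 to 519 in the nonoptimal and 1106 to 1799 in the optimal libraries. GFP footprints per codon were 0.183 to 0.950 and 0.394 to 0.477. Here too, a change in GFP cannot be told apart from a change in Renilla.

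**Figure D1:**
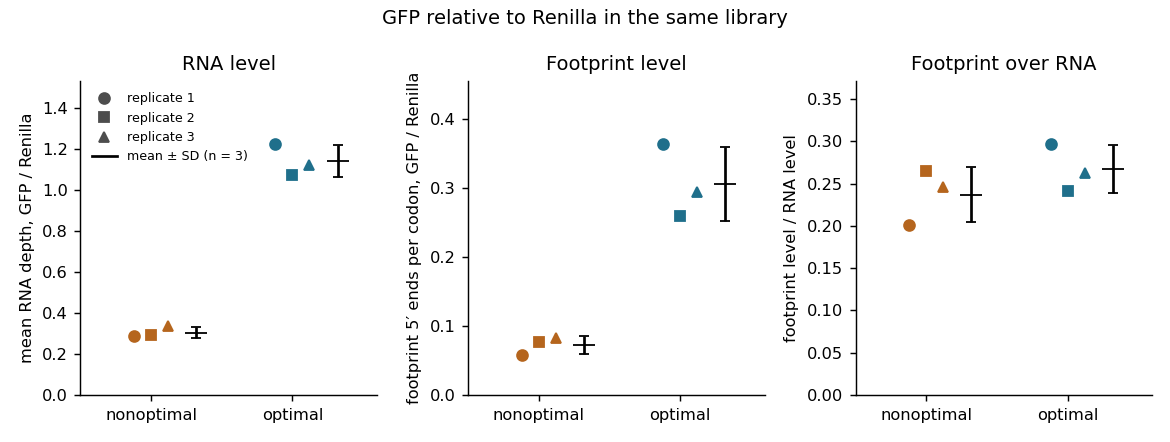
GFP RNA level, GFP footprint level and their quotient, each relative to Renilla in the same library, for the nonoptimal and optimal reporter (points are replicates, bars the mean ± SD of 3). The optimal libraries lie above all nonoptimal ones for RNA (1.07 to 1.23 against 0.288 to 0.335) and footprints (0.259 to 0.364 against 0.0578 to 0.0823), while the quotients overlap.

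GFP was then set against the segments that precede it in the same frame, which needs no scaling between libraries. SM is read before and GFP after the recoded stretch, so their ratio follows how footprint density changes along the frame. Footprints per codon on GFP were 0.604, 0.616 and 0.488 of those on SM in the nonoptimal libraries and 0.636, 0.509 and 0.593 in the optimal libraries. GFP thus held fewer footprints per codon than SM in all 6 libraries. The mean ratio was 0.570 ± 0.0706 (SD, n = 3) with the nonoptimal and 0.579 ± 0.0645 (SD, n = 3) with the optimal reporter. On the log2 scale they differed by 0.026 (SE 0.14), with overlapping ranges (exact permutation p = 0.7, adjusted p = 0.817).

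The RNA depth behind that ratio did separate the reporters. GFP RNA depth was 0.982, 1.02 and 0.946 of SM depth in the nonoptimal libraries and 1.20, 1.22 and 1.19 in the optimal libraries. The means of 0.983 ± 0.0381 (SD, n = 3) and 1.20 ± 0.0129 (SD, n = 3) differed by 0.29 on the log2 scale (SE 0.033) without overlap (exact permutation p = 0.1, adjusted p = 0.28). Per unit of RNA, the GFP to SM footprint ratio was 0.578 ± 0.0541 (SD, n = 3) with the nonoptimal and 0.482 ± 0.0580 (SD, n = 3) with the optimal reporter. The log2 values differed by -0.26 (SE 0.13). These ranges overlapped (exact permutation p = 0.2, adjusted p = 0.311). Without the first and last 15 codons of each segment the difference was -0.44 and the ranges did not overlap. With the mean depth of all Ribo-seq alignments, of any length and strand, it was -0.063. The ranges also did not overlap without nonoptimal replicate 3 or without optimal replicate 1 (-0.34 each), and without optimal replicate 2 the difference was -0.17.

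Against FLuc, the segment whose codons differ, GFP held 0.823, 0.895 and 0.895 of the footprints per codon in the nonoptimal libraries and 0.748, 0.748 and 0.873 in the optimal libraries. The means of 0.871 ± 0.0416 (SD, n = 3) and 0.790 ± 0.0718 (SD, n = 3) differed by -0.14 on the log2 scale (SE 0.084; exact permutation p = 0.2, adjusted p = 0.311). Their ranges overlapped, but not without nonoptimal replicate 1 (-0.18) or optimal replicate 3 (-0.22). GFP RNA depth was higher than FLuc depth in all 6 libraries, 1.28 ± 0.0559 (SD, n = 3) and 1.26 ± 0.0419 (SD, n = 3) times, with overlapping ranges (log2 difference -0.015, SE 0.046; exact permutation p = 0.9, adjusted p = 0.969).

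Footprints on GFP relative to FLuc, per unit of RNA, were 0.678, 0.690 and 0.679 in the nonoptimal and 0.605, 0.603 and 0.665 in the optimal libraries. All optimal values lay below all nonoptimal ones. The means of 0.682 ± 0.00644 (SD, n = 3) and 0.624 ± 0.0355 (SD, n = 3) differed by -0.13 on the log2 scale (SE 0.047), or 0.914-fold (exact permutation p = 0.1, adjusted p = 0.28). The ranges overlapped with mean depth of all Ribo-seq alignments (-0.19), without the 5% densest codons (-0.12), with median RNA depth (-0.079) and with RNA read pairs counted once (-0.11). It was -0.25 with sense alignments of 20 to 40 nt and -0.26 with 28 to 29 nt only.

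**Figure D2:**
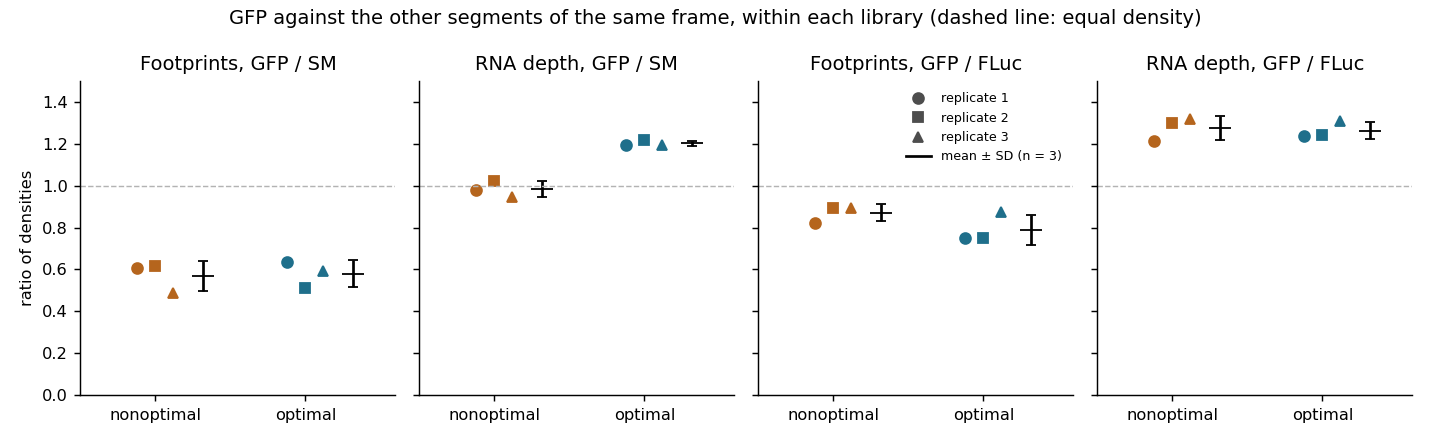
Density on GFP divided by density on SM or FLuc within each library, for footprints per codon and RNA depth per nucleotide (points are replicates, bars the mean ± SD of 3, the dashed line marks equal density). The footprint ratios to SM overlap around 0.57 and 0.579, whereas RNA ratios to SM lie at 0.946 to 1.02 in the nonoptimal and 1.19 to 1.22 in the optimal libraries.

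Within GFP, footprints were concentrated on few codons, and largely the same ones in both reporters. A footprint was found on 137 codons in at least 1 of the 6 libraries, and 104 codons had none. Of the 727 pooled footprints, 57.5% lay on the 20 codons with 10 or more. Both reporters had footprints on 74 codons, while 40 codons were covered in nonoptimal libraries alone and 23 in optimal libraries alone, where most counts are low. The longest stretches without a footprint in any library were codons 38 to 44 and codons 54 to 60.

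The densest stretch was codons 134 to 137, at positions 6450 to 6461 of the nonoptimal and 5684 to 5695 of the optimal map. Runs of neighbouring codons with 10 or more pooled footprints each were formed after the counts were seen, and this was the longest, with 4 codons. They held 27 of 134, 51 of 229 and 9 of 44 nonoptimal footprints and 19 of 110, 20 of 115 and 19 of 95 optimal footprints. That is 20.96% ± 1.15 (SD, n = 3) and 18.2% ± 1.54 (SD, n = 3) of all GFP footprints, where an even spread over codons would give 1.66%. RNA depth over the same codons was 1.47% ± 0.0246 (SD, n = 3) and 1.46% ± 0.0507 (SD, n = 3) of GFP depth. Of these footprints, 81 of 87 nonoptimal and 55 of 58 optimal ones began on the second position of a codon. A ribosomal P site, which holds the growing chain and is taken here as 12 nt after the 5′ end, would lie at codons 138 to 141. Codons 139 to 142 themselves held no 5′ end in any library.

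Other dense places recurred as well. Codons 75 and 76 held 13, 9 and 1 footprints in the nonoptimal and 6, 16 and 9 in the optimal libraries, 5.30% ± 3.90 (SD, n = 3) and 9.61% ± 4.23 (SD, n = 3) of GFP footprints. Codons 21 and 22 held 9, 12 and 2 in the nonoptimal and 9, 4 and 10 in the optimal libraries. Codons 13 and 14 held 11 pooled footprints in each reporter. In all, 8 codons had a footprint in each of the 6 libraries: codons 13, 21, 22, 75, 134, 136, 137 and 170.

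By mean share of GFP footprints, the top 5 codons were 134, 136, 172, 170 and 135 in the nonoptimal reporter and 76, 136, 135, 21 and 134 in the optimal reporter. Codon 134 had 9, 16 and 3 footprints in the nonoptimal and 5, 4 and 4 in the optimal libraries. Codon 136 had 2, 16 and 4 against 4, 7 and 6, and codon 135 had 11, 11 and 0 against 6, 4 and 5. These 3 codons were in both top lists.

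Codon 76, first in the optimal reporter, had 7, 5 and 0 nonoptimal and 4, 10 and 7 optimal footprints. Codon 21 had 4, 4 and 1 nonoptimal and 6, 2 and 6 optimal footprints. Codon 172 had 6, 10 and 2 nonoptimal and 3, 3 and 0 optimal footprints, and codon 170 had 3, 4 and 4 against 2, 4 and 1. No test was made on these codons, since they were picked by their counts.

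Codons picked in one reporter were then read in the libraries of the other, which the choice did not use. The top 5 of the nonoptimal reporter held 18.1% ± 1.15 (SD, n = 3) of optimal GFP footprints, from 16.8% to 19.1%. The top 5 of the optimal reporter held 21.8% ± 3.31 (SD, n = 3) of nonoptimal GFP footprints, from 18.2% to 24.6%. Under an even spread 5 GFP codons would hold 2.07%. For the top 10 codons the held-out shares were 34.6% ± 4.57 (SD, n = 3) and 34.8% ± 7.28 (SD, n = 3), against 4.15%.

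**Figure D3:**
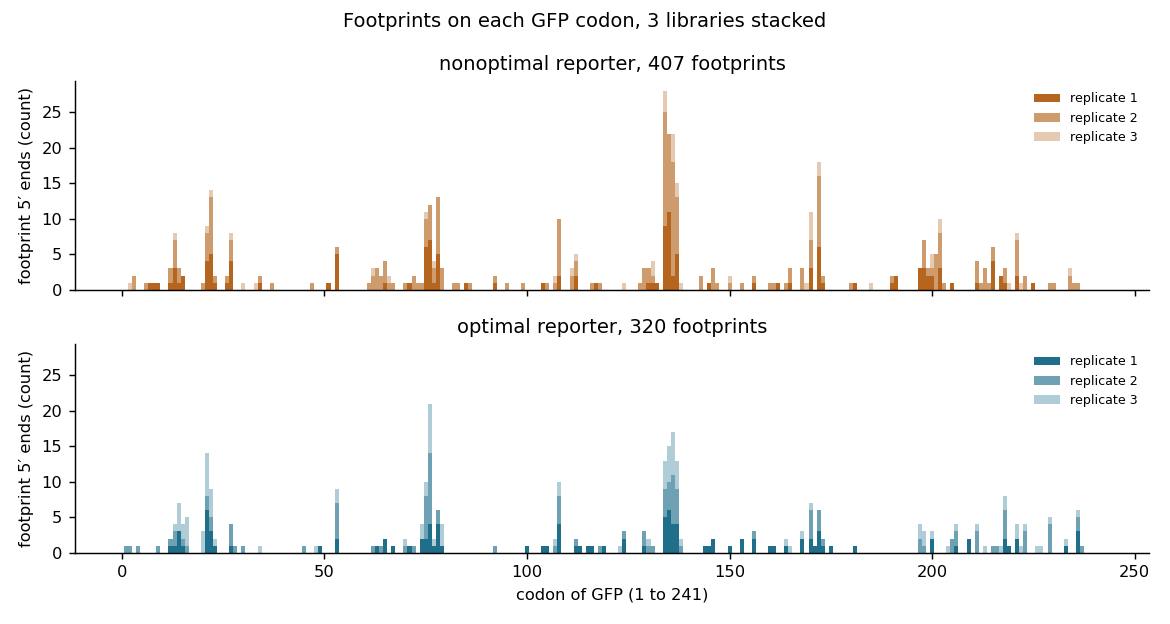
Footprint 5′ ends on each GFP codon, as counts, with the 3 libraries of a reporter stacked (nonoptimal above, 407 footprints, and optimal below, 320 footprints). Both profiles have their densest stretch at codons 134 to 137 and further peaks near codons 21 and 76.

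The spread over codons did not separate the reporters. Because deeper libraries touch more codons, each was reduced by a closed formula to 44 footprints, the number in the shallowest library. At that depth 30.3 ± 1.21 (SD, n = 3) codons of the nonoptimal and 30.3 ± 1.93 (SD, n = 3) of the optimal reporter would carry a footprint, a difference of 0.0081 codons (SE 1.32; exact permutation p = 1, adjusted p = 1). At full depth the codons with a footprint numbered 56, 87 and 31 in the nonoptimal and 59, 52 and 47 in the optimal libraries.

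The likeness of the codon profiles was described by Pearson's r of footprint counts across codons for each pair of libraries. Over GFP, r ranged from 0.36 to 0.74 in the 9 pairs between reporters, with a median of 0.63. It ranged from 0.43 to 0.74 in the 3 pairs within the nonoptimal reporter and from 0.62 to 0.70 within the optimal reporter. GFP profiles were thus about as alike between reporters as within one. Over the 549 FLuc codons, which differ in sequence, the same measure was 0.050 to 0.17 between reporters, with a median of 0.11, against 0.53 to 0.75 and 0.65 to 0.72 within them. Over the 337 SM codons it was 0.39 to 0.78 between reporters. The codons of a library share its depth and its sparse counts, and pairs share libraries, so these values describe the profiles and were not tested.

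**Figure D4:**
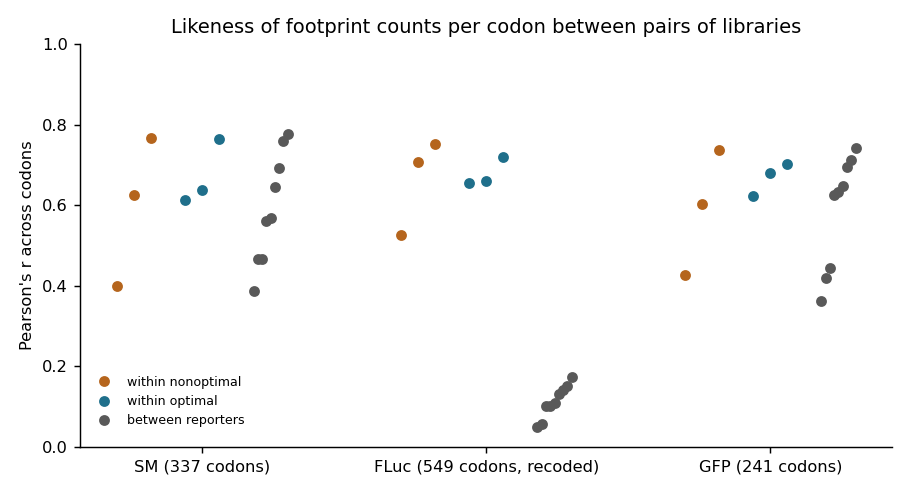
Pearson's r of footprint counts per codon for each pair of Ribo-seq libraries, by segment (each point is 1 pair, 3 within each reporter and 9 between reporters). Between-reporter pairs lie at 0.36 to 0.74 over GFP and at 0.050 to 0.17 over the recoded FLuc.

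The position of footprints along GFP was compared in 10 windows of 24 codons, the last of 25, as shares of all GFP footprints of the library. In 0 of the 10 GFP windows did the ranges of the reporters fail to overlap, where 25.5% of the 47 windows of the whole frame were without overlap. Of the 23 FLuc windows 10 were without overlap, and of the 14 SM windows 2. In RNA depth the GFP count was again 0 of 10, against 40.4% of all windows and 15 of 23 in FLuc. Each GFP window gave an exact permutation p between 0.2 and 1 for footprints. The loss of a library shortens the ranges, so these counts can only rise or stay, in the whole frame as in GFP. Without nonoptimal replicate 1, 3 GFP windows and 42.6% of all windows were without overlap. Without optimal replicate 1 the values were 3 and 38.3%, and without nonoptimal replicate 3 they were 2 and 40.4%. Without nonoptimal or optimal replicate 2 they were 1 and 29.8%, and without optimal replicate 3 they were 0 and 34%.

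Mean footprint shares of the GFP windows ran from 2.74% to 26.04%. Codons 121 to 144 held the largest share in 5 of 6 libraries, 26.04% ± 3.58 (SD, n = 3) for the nonoptimal against 22.2% ± 1.17 (SD, n = 3) for the optimal reporter. Their RNA share was 8.84% ± 0.168 (SD, n = 3) and 8.86% ± 0.355 (SD, n = 3). Codons 1 to 24 held 11.6% ± 2.98 (SD, n = 3) and 17.4% ± 7.90 (SD, n = 3), and were the densest window in optimal replicate 3. Codons 73 to 96 held 10.96% ± 5.76 (SD, n = 3) and 15.01% ± 2.01 (SD, n = 3).

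In 4 windows the mean share was under 7% in both reporters, although single libraries reached more. Codons 25 to 48 held 4.78% ± 1.90 (SD, n = 3) of footprints with the nonoptimal and 2.74% ± 2.22 (SD, n = 3) with the optimal reporter. Codons 145 to 168 held 3.94% ± 2.29 (SD, n = 3) and 5.28% ± 5.78 (SD, n = 3), with 11.8% in the highest optimal library. Codons 49 to 72 held 5.98% ± 1.44 (SD, n = 3) and 6.09% ± 2.55 (SD, n = 3), and codons 97 to 120 held 6.24% ± 1.56 (SD, n = 3) and 6.72% ± 3.91 (SD, n = 3), with 10.9% in the highest optimal library.

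RNA depth did not follow the footprints. Codons 169 to 192 had the highest RNA share in all 6 libraries, 12.4% ± 1.02 (SD, n = 3) and 13.1% ± 0.484 (SD, n = 3), while they held 12.02% ± 5.55 (SD, n = 3) and 5.40% ± 3.81 (SD, n = 3) of footprints. Codons 193 to 216 held 11.7% ± 2.55 (SD, n = 3) and 8.15% ± 3.16 (SD, n = 3) of footprints.

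**Figure D5:**
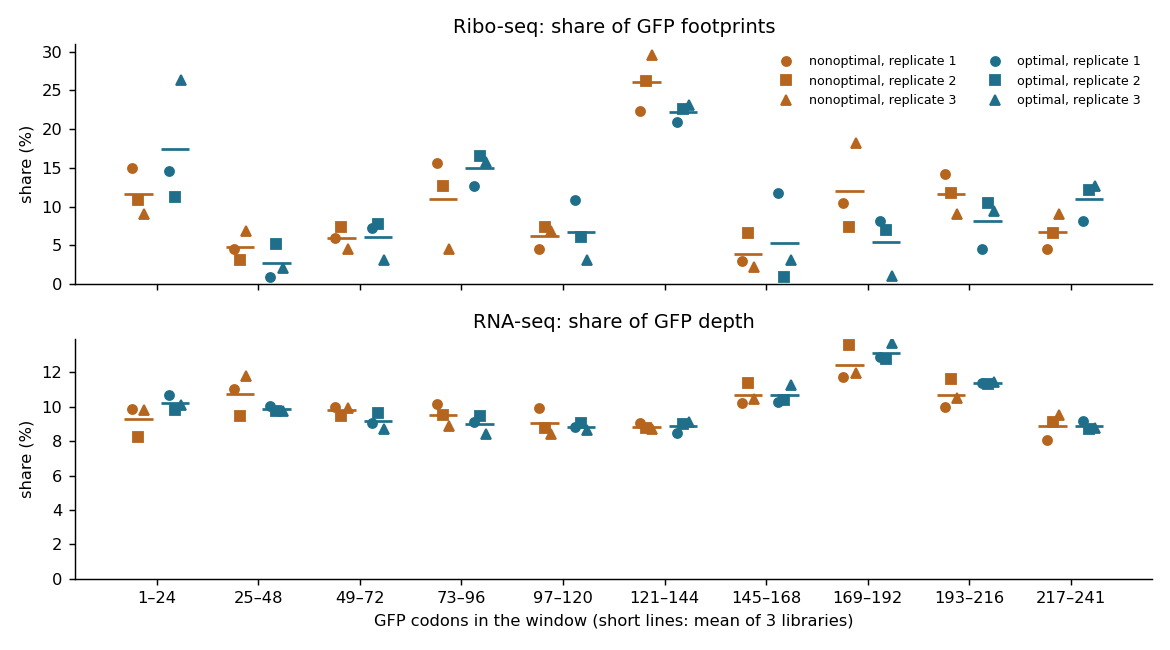
Share of GFP footprints (top) and of GFP RNA depth (bottom) in 10 windows of codons, for each library (points) with the mean of 3 libraries as a short line. Codons 121 to 144 stand out in footprints at 26.04% and 22.2% but not in RNA, where their shares are 8.84% and 8.86%.

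Codons 1 to 120 of GFP held 45.5%, 41.5% and 31.8% of nonoptimal and 46.4%, 47.0% and 50.5% of optimal footprints. All optimal values were above all nonoptimal ones. The means of 39.6% ± 7.04 (SD, n = 3) and 47.9% ± 2.25 (SD, n = 3) differed by 8.34 percentage points (SE 4.27; exact permutation p = 0.1, adjusted p = 0.28). Without the 5% densest codons the difference was -2.26 points, of the opposite sign and with overlap, with 28 to 29 nt footprints only it was 4.52 points with overlap, and without nonoptimal replicate 3 it was 4.45 points without overlap. The RNA share of these codons was 48.4% ± 2.76 (SD, n = 3) and 47.1% ± 1.21 (SD, n = 3), with overlapping ranges (exact permutation p = 0.5, adjusted p = 0.636). Without nonoptimal replicate 2 these RNA shares differed by -2.84 points without overlap, without nonoptimal replicate 1 by -0.098 points and without optimal replicate 3 by -0.67 points.

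Footprints stopped at the end of the frame. The last GFP codon with a 5′ end was 237 over all libraries, with 1 footprint, in optimal replicate 2. This is close to where a ribosome on the stop codon would place it, if the GFP entry ends with that codon. The place of the stop codon was not checked, since sequences were not analysed. In the 25 codons' length after GFP, 0 footprints began in any library, which allows up to 3 per library. The last 25 codons of GFP held 6, 15 and 4 footprints in the nonoptimal and 9, 14 and 12 in the optimal libraries, 6.71% ± 2.31 (SD, n = 3) and 10.996% ± 2.45 (SD, n = 3) of GFP footprints. The difference was 4.29 percentage points (SE 1.94), with overlapping ranges (exact permutation p = 0.2, adjusted p = 0.311). The ranges did not overlap without nonoptimal replicate 3 (5.48 points) or optimal replicate 1 (5.70 points). Codon 236 had 0, 1 and 0 footprints in the nonoptimal and 3, 2 and 1 in the optimal libraries.

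At the other border, where ribosomes leave the recoded FLuc, the counts of the reporters differed on the FLuc side. The last 25 codons of FLuc held 5, 11 and 2 footprints in the nonoptimal and 13, 30 and 20 in the optimal libraries. The first 25 codons of GFP held 20, 25 and 4 and 16, 13 and 25. These counts are not scaled for depth and were not tested. Differences within FLuc were not particular to this border. By footprint share, 10 of 23 FLuc windows were without overlap, 5 higher in each reporter, against 25.5% of all 47 windows.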

How the data were processed

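The authors deposited, for each of 12 libraries, the alignments to the plasmid maps with start, end and strand, and a list of named plasmid regions. The submitters' processing notes name UMI-tools, Bowtie 1.2.2, SAMtools 1.12, STAR 2.6.0a, Salmon 1.6.0 and bedtools without saying which step used which. Trimming and filters are not given in the sources used here. These values are positions and no expression unit, so no count model was used. Lines with the same map, start, end, name, score and strand were merged, and summary lines were dropped.

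Footprints were sense alignments of 27 to 30 nt, counted at the codon of their 5′ end. RNA depth was counted per nucleotide from all RNA-seq alignments, so both mates of a pair counted. Libraries were grouped, and RNA-seq matched to Ribo-seq by number, from the labels. Ratios were compared on the log2 scale and shares and codon numbers on the linear scale, by exact two-sided permutation tests with Benjamini-Hochberg adjustment over 14 comparisons. SE is that of a difference of group means. All 10 GFP windows are named, and single codons by the rule of the 5 with the highest mean share in each reporter. Codons named otherwise, the groups of neighbouring codons and the comparisons at the borders were chosen after their values were seen. The members and lists were chosen with earlier results of these data known. The scripts were tested on simulated data. Python 3.11.15, NumPy 2.4.6, pandas 2.3.3, SciPy 1.17.1, statsmodels 0.14.6 and matplotlib 3.10.9 were used.

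The alternatives were all alignments in place of footprints, other length ranges, a shift of 12 nt, dropping dense or outer codons, a pseudocount of 1, another scale, reads aligned to 1 plasmid only, median RNA depth, RNA pairs counted once, other windows, leaving out each replicate and a replicate block.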

Additional observations from a re-analysis of the deposited data

Results flagged for a closer look

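These signals lie in Ribo-seq alignments over GFP that the comparisons do not use, and each was above 3 counts, the limit set by a count of 0. The design has no untransfected sample. Alignments of 139 nt over GFP numbered 38, with 9, 1 and 0 in the nonoptimal and 13, 4 and 11 in the optimal libraries, and all 38 were antisense. Antisense Ribo-seq alignments over GFP numbered 40 in all, and 0 of them were 27 to 30 nt long. Alignments shorter than 27 nt numbered 107, with 24, 21 and 1 in the nonoptimal and 9, 32 and 20 in the optimal libraries. Their part in the results was not tested on its own. Among the alternatives, sense alignments of 20 to 40 nt take in some of the short ones. Mean depth of all Ribo-seq alignments takes in every length and both strands, so its values rest partly on these alignments.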

How the results depend on the processing

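A recomputed difference between the reporters was counted as moved when it shifted by 1 pooled SD or more. Of 103 recomputed differences, 91 shifted by less and 12 by that or more. The 91 include the replicate block, which cannot shift a mean difference. They also include the setting of reads aligned to 1 plasmid only, which removed no GFP alignment. The count of 91 therefore overstates how stable the differences were. In 5 of the 103 the sign changed, 4 of them in differences whose ranges overlapped to begin with: the GFP to SM footprint ratio, from 0.026 to -0.024 with 28 to 29 nt, -0.070 without the 5% densest codons and -0.16 without the outer 15 codons, and the number of codons with a footprint, from 0.0081 to -0.37 without the 5% densest codons. Leaving out 1 of 3 replicates cannot shift a difference by 1 pooled SD, so the 0 of 84 that did so was fixed in advance. Such a loss changed the sign of 6 and ended the overlap of 9, and it cannot create an overlap. With mean depth of all Ribo-seq alignments, antisense and 139 nt ones included, the log2 difference in the GFP to SM footprint ratio was 0.23. After division by RNA it was -0.063. With sense alignments of 20 to 40 nt the GFP to FLuc footprint ratio differed by -0.27, and by -0.25 after division by RNA; with 28 to 29 nt only these were -0.28 and -0.26. Without the first and last 15 codons of each segment the GFP to SM values were -0.16 and -0.44. Scaled by all plasmid alignments, the GFP level differed by 1.35 in footprints and 1.03 in RNA. With median RNA depth the GFP to SM RNA ratio differed by 0.24. Without the 5% densest codons the share of footprints in codons 1 to 120 differed by -2.26 points. The cause of these shifts was not tested. The GFP windows without overlap, 0 at first, were 1 with 5′ ends moved by 12 nt (34% of all windows), 1 with windows of 30 codons (35.1% of all), and 0 to 3 without 1 replicate, which leaves fewer libraries. Over all these alternatives the FLuc count was lowest at 7 of 23 windows, without the 5% densest codons (19.1% of all windows). It was highest at 15 of 27, with windows of 20 codons (32.1% of all).

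With a replicate block, 3 of 10 GFP windows moved the same way in all 3 pairs, as did 38.3% of the 47 windows and 12 of 23 in FLuc. This rule is looser, since windows without overlap always meet it, so its counts cannot be lower than the main ones. The block left each mean difference as it was, such as 1.91 in RNA level and 2.08 in footprint level, with an exact sign-flip p of 0.25, the smallest that 3 pairs allow. Same-numbered libraries of the reporters did not deviate together over the 47 windows: r was -0.24, -0.35 and -0.25 in Ribo-seq and 0.15, -0.027 and -0.25 in RNA-seq. For differently numbered libraries r was 0.037 to 0.20 in Ribo-seq and -0.51 to 0.46 in RNA-seq. The pairs share libraries, so these values are not independent, and they were not tested. Depth limits single codons most, with 175 GFP codons under 3 pooled footprints.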

Other observations

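Footprints over GFP were slightly shorter than those over Renilla in the same library. The mean length was 28.3 ± 0.235 nt (SD, n = 3) over GFP against 28.7 ± 0.112 nt (SD, n = 3) over Renilla in the nonoptimal libraries, and 28.3 ± 0.154 nt (SD, n = 3) against 28.6 ± 0.0334 nt (SD, n = 3) in the optimal libraries. GFP had the lower mean in 6 of 6 libraries, by 0.10 to 0.50 nt. SM, the segment before FLuc, had 28.2 ± 0.153 nt (SD, n = 3) and 28.2 ± 0.152 nt (SD, n = 3).

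Codon 202 of GFP, picked after its counts were seen, had 3, 5 and 2 footprints in the nonoptimal libraries and 0 in each optimal library, 10 of 407 against 0 of 320 pooled. Codon 206, also picked after its counts were seen, went the other way, with 0 in each nonoptimal library and 1, 2 and 1 in the optimal libraries. A count of 0 allows up to 3, and no test was made. Between 33.2% and 37.8% of RNA-seq pairs on GFP began within FLuc or before it, and between 19.2% and 25.5% ended past GFP.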
